A study of Mus musculus with 18 samples.

Results

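The comparison described here is that of elastase-induced aortic aneurysm in mice given lenvatinib with the same aneurysm in mice not given it. It took in the arrays whose sample titles and treatment labels name PPE with lenvatinib and those that name PPE alone, 13 of the 18 arrays of the series, 7 of PPE + Lenva systemic and 6 of PPE, 1 array per mouse. PPE stands for porcine pancreatic elastase, which is instilled into the infrarenal aorta and starts an abdominal aneurysm. The labels give male mice, 10 weeks old when the aneurysm was induced, a lenvatinib dose of 5 mg/kg by oral gavage in DMSO on days 7 to 24, and sacrifice on day 28, so that tissue was taken after dosing had ended. RNA integrity numbers lay between 5.7 and 9.8 over the series and were not given per sample. The labels name ApoE-/- mice for every group, whereas the methods name C57BL/6J WT mice for the elastase model, and the strain of these arrays is not settled here. Vehicle, gavage and isoflurane are described for the lenvatinib mice, and whether the untreated mice received them is not given in the sources used here, so lenvatinib cannot be told apart from its vehicle, the gavage or the anaesthesia. A figure legend of the study calls the PPE mice followed for diameter sham-treated, without saying there what the sham was. RNA of about 1 mm of infrarenal aorta was hybridised to the Mouse Transcriptome Array 1.0. The remaining 5 arrays, of nondilated normal aorta, serve below as a level to read values against. They also enter the estimate of the spread, and so the SEs and limma p-values.

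Lenvatinib is a small molecule that blocks the kinase activity of receptors for vascular endothelial growth factor, fibroblast growth factor, platelet-derived growth factor alpha and glial-derived factor, and of the stem cell factor receptor. Those receptors carry growth signals to endothelial cells, fibroblasts, smooth muscle cells and mast cells. In the aortic media, contractile smooth muscle cells hold the wall with myosin, actin and integrin-bound matrix, and in experimental aneurysm they are lost or change state while macrophages, lymphocytes and new small vessels enter the wall.

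All values are log2 signals that were normalized between arrays, so a difference of 1 is 2-fold. Array medians of the 13 arrays lay between 5.46 and 5.66, and pairwise correlations between 0.935 and 0.991. Values of single arrays were given for 11121 of 65956 transcript clusters, the probe groups that stand for a gene or transcript. For the others, the authors' group averages and SDs were used. These averages give less weight to arrays far from the rest, and can give a clearly different value for a gene with array values. That value is stated for some of these genes and not for all. The 11121 clusters were those that differed among the 3 groups, treated arrays included, in the authors' overall test, and small p-values are therefore more frequent among them. Of them, 18.3% had an unadjusted p under 0.05 for treated against untreated PPE, compared with 5.97% of all clusters. The tissue was aorta by its smooth muscle markers, 8 of 8 of which were measured, with group averages from 6.91 to 19.93 in PPE and from 7.39 to 19.93 in PPE + Lenva systemic. Skeletal muscle and mesothelial markers were at 3.57 to 4.98 in both groups, whereas markers of macrophages, fibroblasts and adipocytes were far higher, at 7.33 to 19.93. As this is bulk tissue, fewer cells of a type and less RNA per cell cannot be told apart in any result below.

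No transcript cluster passed the test at an adjusted p under 0.05 between PPE + Lenva systemic and PPE (limma, Benjamini-Hochberg over 65956 clusters; 0% of clusters and 0% of genes), and the smallest adjusted p was 0.156. In a limma fit of the 13 arrays alone, without normal aorta, the smallest adjusted p was 0.733. Without adjustment, 3938 clusters had a p under 0.05. Of these, 2330 were higher in the treated arrays (3.53% of clusters) and 1608 were lower (2.44%). Without dim clusters, whose group averages were all under 5, the balance turned, with 676 higher and 773 lower. Such a difference is called nominal below, and no nominal difference counts as a change. At least a 2-fold nominal difference was found in 12 clusters in the higher direction (0.0182%) and in 89 in the lower (0.135%). The 2-fold lower clusters were mainly one class, as 55 of the 89 were immunoglobulin segments. Arrays did not overlap between the groups in 43 clusters that were higher (0.387% of those with array values) and in 30 that were lower (0.270%).

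**Figure D1:**
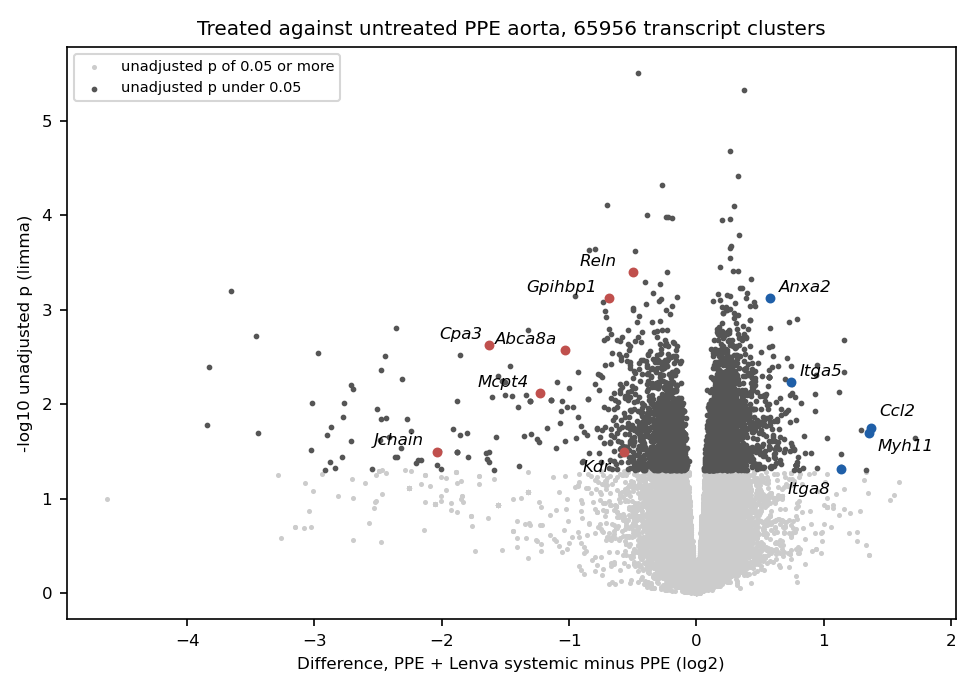
Difference between PPE + Lenva systemic and PPE on the log2 scale (x axis) against -log10 of the unadjusted limma p (y axis) for 65956 transcript clusters, dark points with an unadjusted p under 0.05. Named genes are blue where higher and red where lower in the treated arrays, and the 2-fold differences lie mostly on the lower side (89 clusters against 12).

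The 2 clusters with the smallest p were a microRNA precursor and an immunoglobulin segment, both at an adjusted p of 0.156 (limma). Mir7039 was between 4.98 and 5.31 in the PPE arrays (authors' average 5.15) and between 5.39 and 5.63 in the treated arrays, a difference of 0.38 (SE 0.06). All 7 treated arrays lay above all 6 PPE arrays, and the authors' average in normal aorta, 5.32, lay between them. The mature sequences that RefSeq lists for it on GRCm38.p6, chromosome 5, minus strand, are shown because it is the microRNA cluster with the smallest p, with the seed (bases 2 to 8) in capitals:
mmu-miR-7039-5p: aGAGGGAUggagagcaucgcgu
mmu-miR-7039-3p: cCUGUUCUgcccucccuuccag
They occupy chr5:144896790-144896811 and chr5:144896732-144896753. The cluster covers the whole precursor, so the array does not say which arm was measured. Ighv2-1, a heavy chain variable segment, lay between 5.98 and 6.25 in PPE and between 5.42 and 5.79 in treated arrays, a difference of -0.46 without overlap. MicroRNAs of smooth muscle did not separate the groups. Mir143 and Mir145a, which promote the contractile state of smooth muscle cells, had differences of 0.62 (SE 0.35, exact permutation p = 0.104) and 0.43 (SE 0.48, exact permutation p = 0.354), and their host transcript Mir143hg one of 0.49 (SE 0.32, exact permutation p = 0.138).

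Genes of contractile smooth muscle had mostly higher signals in the treated arrays, and the treated arrays differed widely among themselves. Of 29 members of the list, 26 had positive differences, 6 were nominally higher and none was lower, with a median difference of 0.36 against 0.01 over all 36232 genes. The 6 were 27.3% of the 22 members with array values, compared with 10.0% of all genes with array values, and 20.7% of all members, compared with 3.44% of all genes. Myh11, the smooth muscle myosin heavy chain, ran from 12.81 over a median of 13.36 to 14.07 in PPE and from 12.96 over 14.84 to 16.23 in PPE + Lenva systemic. The treated arrays 2, 3, 5, 6 and 7 lay above every PPE array, and treated arrays 1 and 4 among them. The difference was 1.36 (SE 0.53, unadjusted p = 0.02, adjusted p = 0.755, limma; two-sided exact permutation p = 0.0326 over 13 arrays, where the smallest possible is 0.000583). The normal aorta had a mean of 16.57. The SD of Myh11 was 0.46 in PPE and 1.24 in the treated group.

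Myl6, the essential light chain of smooth muscle and non-muscle myosin, was the member whose groups did not overlap. It ran from 13.97 to 14.32 with a median of 14.20 in PPE and from 14.41 to 15.67 with a median of 14.73 in treated arrays, a difference of 0.65 (SE 0.25, unadjusted p = 0.0183, limma; exact permutation p = 0.00117), and the highest treated value was that of array 2. The window of 300 bases around one of the Myl6 start sites that RefSeq lists (GRCm38.p6, chr10:128492960-128493259, minus strand) is shown because it holds a CArG box, the element that serum response factor binds, here in capitals and starting 50 bases before the start site:
Myl6: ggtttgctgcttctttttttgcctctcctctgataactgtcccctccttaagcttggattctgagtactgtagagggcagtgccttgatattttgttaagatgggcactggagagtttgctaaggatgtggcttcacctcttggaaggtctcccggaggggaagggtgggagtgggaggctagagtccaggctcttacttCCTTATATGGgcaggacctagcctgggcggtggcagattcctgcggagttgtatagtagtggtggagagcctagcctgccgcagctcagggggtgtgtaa
The CArG box was searched for by its name's consensus on both strands in windows from 250 bases before to 50 after each start site. It occurred in 3 of the 24 contractile genes with such a window (12.5%; Cnn2, Myl6 and Myl9) and in 488 of 27025 genes overall (1.81%). A match is a description of letters and no evidence of binding.

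The other nominal members were Mylk, the myosin light chain kinase (0.56, SE 0.20), Nexn, an actin-binding protein (0.74, SE 0.30; 0.47 without treated array 2, and 0.44 and not nominal with the authors' averages), Ppp1r12a, the targeting subunit of myosin phosphatase (0.61, SE 0.27) and the calponin gene Cnn2 (0.45, SE 0.20). Mylk ran from 6.76 to 7.04 in PPE and from 6.99 to 8.04 in treated arrays, 6 of which were above every PPE array. Other contractile genes gave smaller or more variable differences. Cnn1, or calponin, differed by 0.71 (SE 0.50, exact permutation p = 0.163), the caldesmon gene Cald1 by 0.33 (SE 0.19, exact permutation p = 0.159), Tagln, or transgelin, by 0.14 (SE 0.12, exact permutation p = 0.287; 0.51 and nominal under quantile normalization, and 0.23 and nominal without treated array 1), and Myocd, which encodes the coactivator myocardin, by 0.31 (SE 0.30, exact permutation p = 0.217). Acta2, the smooth muscle actin, stood at the highest value of the scale, 19.93, in all 3 group averages, so that no difference could be measured, as in 294 clusters.

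The mean over the 22 contractile members with array values lay between 9.72 and 10.10 in the 6 PPE arrays. It was 11.33, 11.04 and 10.74 in treated arrays 5, 2 and 3, between 10.14 and 10.46 in treated arrays 4, 6 and 7, and 9.64 in treated array 1. Thus 6 treated arrays lay above the PPE range and 1 below it. The number of nominally higher members depended on these arrays: it was 3 without treated array 5 and 13 without treated array 1, and between 4 and 8 without any other single array.

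**Figure D2:**
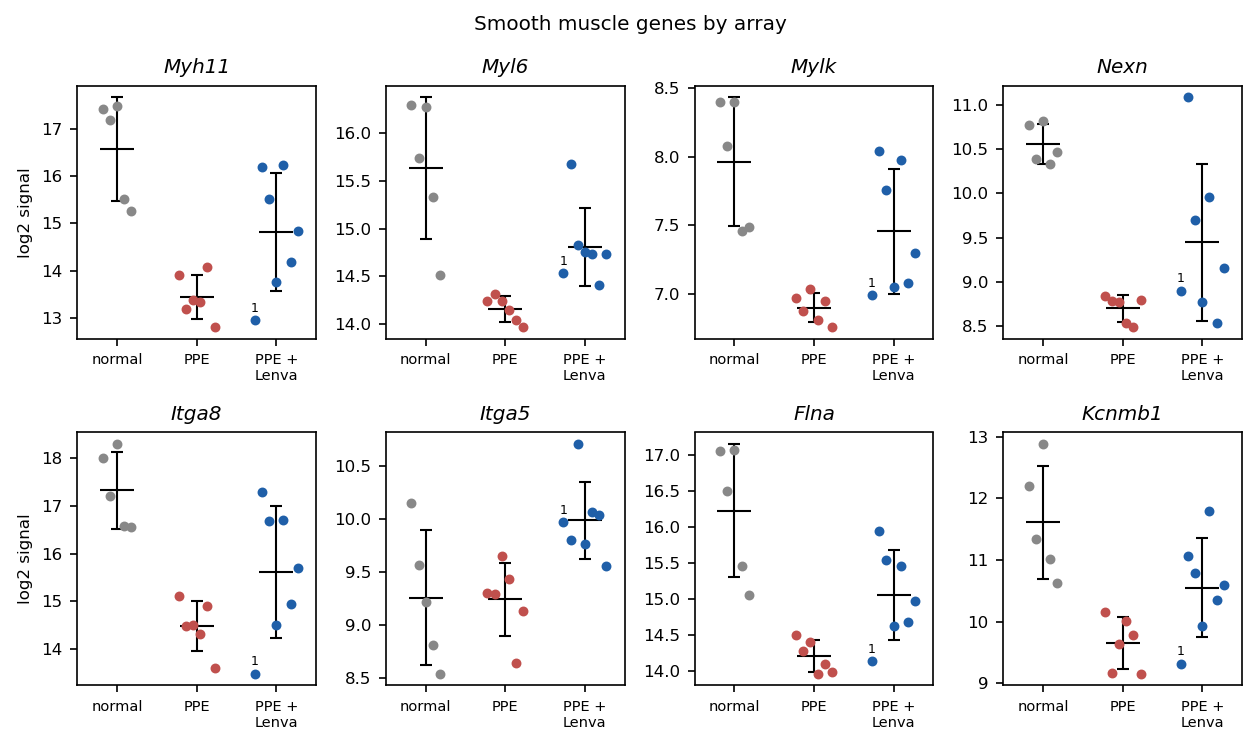
Log2 signal (y axis) of 8 smooth muscle genes in each array of normal aorta (grey, n = 5), PPE (red, n = 6) and PPE + Lenva systemic (blue, n = 7), with bars for the group mean ± SD; the digit 1 marks treated array 1. For Myh11 the PPE arrays end at 14.07 and 5 of 7 treated arrays lie above, and for Myl6 all 7 treated arrays lie above the PPE arrays.

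Genes of integrins and of the cytoskeleton that anchors them also had mostly positive differences. In the list of smooth muscle adhesion and cytoskeleton, 5 of 24 measured members were nominally higher and none lower, which is 33.3% of the 15 members with array values (10.0% of all genes with array values), and the median difference was 0.24. Itga5, the fibronectin receptor subunit, ran from 8.64 over 9.30 to 9.65 in PPE and from 9.56 over 9.97 to 10.71 in treated arrays, with 6 of 7 treated arrays above every PPE array (difference 0.75, SE 0.24, unadjusted p = 0.00581, limma; exact permutation p = 0.00175). Its normal aorta mean of 9.26 was close to that of PPE, 9.24. Itgb1, the shared beta-1 chain, differed by 0.42 (SE 0.15), and Itgb3, the beta-3 chain that pairs with the alpha-v chain in vessels, by 0.52 (SE 0.17). Flna, the actin crosslinker filamin A, ran from 13.97 over 14.19 to 14.50 in PPE and from 14.14 over 14.98 to 15.95 in treated arrays, a difference of 0.85 (SE 0.34). Itga8, the alpha-8 integrin of contractile smooth muscle, spread more: PPE arrays ran from 13.59 to 15.10 and treated arrays from 13.48 to 17.30. Its difference of 1.14 (SE 0.54, unadjusted p = 0.0489, exact permutation p = 0.088) was 0.86 without treated array 2, where the p was 0.112.

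Among genes of calcium handling, ion channels and cyclic nucleotide signalling, 4 of 22 were nominally higher and none lower, 23.5% of the 17 with array values against 10.0% of all genes with array values. Kcnmb1, the beta subunit of the calcium-activated potassium channel, ran from 9.16 over 9.71 to 10.16 in PPE and from 9.32 over 10.60 to 11.80 in treated arrays, 5 of which were above all PPE arrays (0.90, SE 0.39). Kcnab1, a beta subunit of voltage-gated potassium channels, differed by 0.62 (SE 0.28), Pde3a, a cyclic nucleotide phosphodiesterase, by 0.60 (SE 0.24) and Ryr2, the calcium release channel of the sarcoplasmic reticulum, by 0.58 (SE 0.21). Of the 18 fits that each left out 1 array, Kcnab1 was nominal in 10 and Kcnmb1 in 13. In Kcnmb1 and Kcnab1, as in Myh11, treated arrays 2 and 5 gave the highest values. The number of nominal members in this list was 2 without PPE array 2 or 6 or treated array 2, 3 or 5, and 7 without treated array 1. Receptors for vasoconstrictors showed 1 member higher, the alpha-1D adrenoceptor Adra1d (0.19, SE 0.06), and 1 lower, the angiotensin receptor Agtr1a (-0.20, SE 0.09), of 16. Each was 6.25% of the list, against 3.44% of all genes higher and 2.41% lower. Adra1d was 11.1% of the 9 members with array values, close to the 10.0% of all such genes that were higher.

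The receptors that lenvatinib blocks were measured as transcripts, and the kinase activity itself was not. Of 10 receptors, 9 had a cluster with 1 gene symbol. Kdr, the main receptor for vascular endothelial growth factor on endothelium, had authors' averages of 8.32 (SD 0.54) in PPE and 7.75 (SD 0.44) in treated arrays, a difference of -0.57 (SE 0.24, unadjusted p = 0.0317, adjusted p = 0.788, limma). Flt1, the decoy-like receptor of the same family, had 7.23 (SD 0.24) and 6.92 (SD 0.27), a difference of -0.31 (SE 0.14). These were the nominal differences of the list, both lower, which is 22.2% of the 9 members against 2.41% of all genes. Flt4, the receptor of lymphatic endothelium, differed by -0.21 (SE 0.12) and the glial-derived factor receptor Ret by -0.18 (SE 0.09), neither of them nominal. The fibroblast growth factor receptors Fgfr1, Fgfr2, Fgfr3 and Fgfr4 differed by -0.05, 0.21, -0.02 and 0.05, none of them nominal. Kit, the stem cell factor receptor, had a median of 6.42 in PPE and 6.38 in treated arrays, a difference of 0.01 (SE 0.17, exact permutation p = 0.924). For Kdr and Flt1 no array values were given, so single arrays could not be left out. Both were thus outside the clusters that differed among the 3 groups in the authors' overall test.

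**Figure D3:**
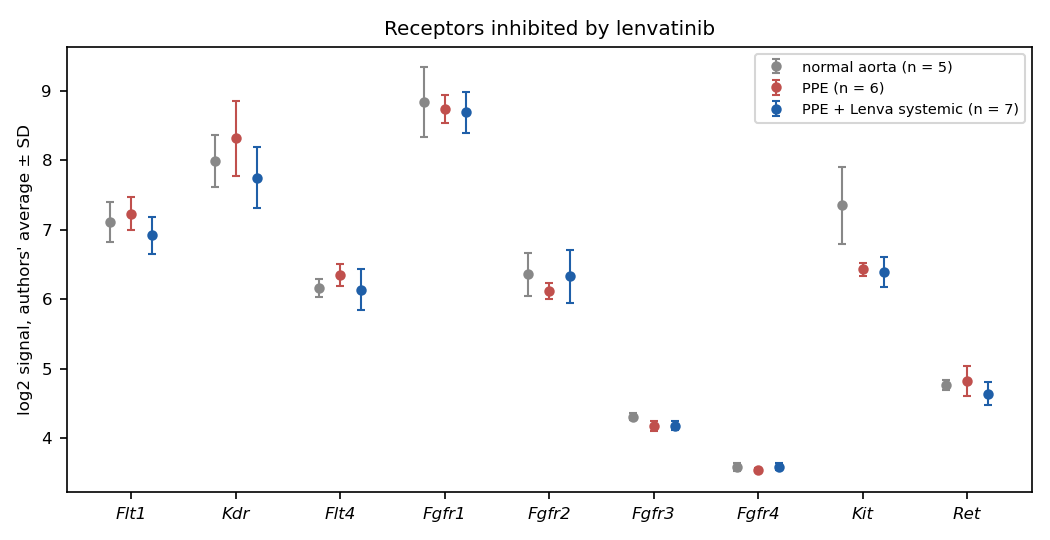
Authors' average log2 signal ± SD (y axis) of 9 receptors that lenvatinib inhibits, in normal aorta, PPE and PPE + Lenva systemic. Kdr and Flt1 were lower in the treated group by 0.57 and 0.31, and their SD bars overlap those of PPE.

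Ligands and co-receptors of these receptors gave 1 nominal difference of 19, which is 5.26% of them, against 3.44% of all genes higher. Fgf1, a ligand of all fibroblast growth factor receptors, was higher by 0.21 (SE 0.10). Fgf2 differed by 0.36 (SE 0.20) and Kitl, the stem cell factor, by -0.35 (SE 0.20), neither of them nominal. Genes that the ERK pathway induces as output or feedback were read as a measure of signalling below the receptors. Of 18, 1 was nominally lower (5.56% against 2.41% of all genes). Spry4, a feedback inhibitor, ran from 4.38 over 4.58 to 4.83 in PPE and from 3.90 over 4.24 to 4.67 in treated arrays (difference -0.30, SE 0.12), at a low signal, and the groups overlapped. Its p was 0.0615 without PPE array 5. Etv5 and Phlda1, other genes of this output, differed by 0.12 (SE 0.06) and -0.33 (SE 0.17), neither of them nominal.

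Differences of endothelial genes were more often negative than positive, in 10 of 15 capillary and in 17 of 21 pan-endothelial genes, with medians of -0.08 and -0.14. In the list of capillary and angiogenic endothelium, 3 of 15 members were nominally lower and 1 higher, and the lower ones were 37.5% of the 8 members with array values (7.16% of all genes with array values). Gpihbp1, which carries lipoprotein lipase to the capillary lumen, ran from 6.5 over 6.56 to 7.68 in PPE and from 5.87 over 6.00 to 6.34 in treated arrays, so that every treated array lay below every PPE array (difference -0.69, SE 0.17, unadjusted p = 0.000746, adjusted p = 0.751, limma; exact permutation p = 0.000583). The highest PPE value, that of array 5, stood 0.99 above the next, and without that array the difference was -0.50. Nid2, a basement membrane nidogen, was lower by 0.30 (SE 0.09) and Aplnr, the apelin receptor, by 0.43 (SE 0.15; 0.29 without PPE array 3). Esm1, a gene of endothelial tip cells, was higher by 0.26 (SE 0.12), and was nominal in 9 of the 18 fits that each left out 1 array. Adgrl4, an adhesion receptor of endothelium that is in no list and was picked after its values were seen, ran from 8.44 to 9.64 in PPE and from 7.39 to 8.38 in treated arrays, a difference of -0.77 without overlap.

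None of the 21 pan-endothelial genes was nominally different, but 3 were nominally lower without normal aorta array 2 and 1 without normal aorta array 5 or treated array 5. Normal aorta enters the estimate of the spread. Pecam1 differed by 0.03 (SE 0.38; authors' averages 10.64 in PPE and 10.88 in treated arrays) and Cd34 by -0.35 (SE 0.26). The vascular cadherin Cdh5 differed by -0.66 (SE 0.34, exact permutation p = 0.0367) and the endoglin gene Eng by -0.48 (SE 0.25, exact permutation p = 0.039; -0.18 with the authors' averages). All 8 measured genes of lymphatic endothelium had negative differences, with a median of -0.26, and 2 were nominal, both among the 5 with array values, a list of 8 in all, where 2.41% of all genes and 7.16% of those with array values were lower. Reln, a secreted protein of lymphatic vessels, ran from 6.43 over 6.52 to 6.93 in PPE and from 5.71 over 6.20 to 6.37 in treated arrays, without overlap (difference -0.49, SE 0.11, unadjusted p = 0.000399, limma; exact permutation p = 0.00117), which was -0.25 with the authors' averages. Prox1, the transcription factor that specifies lymphatic endothelium, was lower by 0.45 (SE 0.14), with 6 of 7 treated arrays below every PPE array.

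Proteases stored in mast cell granules were lower in the treated arrays. Of 10 genes in the mast cell list, 4 were nominally lower and none higher, which is 4 of the 5 with array values (80.0%, against 7.16% of all genes with array values). Cpa3, mast cell carboxypeptidase, ran from 9.80 over 10.51 to 11.37 in PPE and from 6.92 over 9.03 to 10.42 in treated arrays. The lowest treated value was that of array 4, and 5 of 7 treated arrays lay below every PPE array. The difference was -1.63 (SE 0.46, unadjusted p = 0.00238, adjusted p = 0.751, limma; exact permutation p = 0.00991), and the normal aorta mean was 11.12. Mcpt4, a mast cell chymase, ran from 8.06 over 9.22 to 9.67 in PPE and from 6.61 over 7.72 to 9.16 in treated arrays (difference -1.23, SE 0.40, exact permutation p = 0.0204). The tryptase Tpsb2 was lower by 0.74 (SE 0.23) and the chymase Cma1 by 0.60 (SE 0.20). Treated arrays 6 and 7 were the highest of the treated group in all 4 except that array 3 stood above array 7 in Cma1. The 4 members remained nominal without any single array. The fifth member with array values was Kit, the receptor on which mast cells depend and a target of lenvatinib, with a difference of 0.01. The other 5 members, among them the IgE receptor genes Fcer1a and Ms4a2, had averages of 3.50 to 4.41 and differences between -0.04 and 0.11.

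The window around the Cpa3 start site (GRCm38.p6, chr3:20242132-20242431, minus strand) is shown because Cpa3 had the largest difference of these proteases and holds the letters AGATAA, a form of the GATA factor motif, in capitals and starting 46 bases before the start site:
Cpa3: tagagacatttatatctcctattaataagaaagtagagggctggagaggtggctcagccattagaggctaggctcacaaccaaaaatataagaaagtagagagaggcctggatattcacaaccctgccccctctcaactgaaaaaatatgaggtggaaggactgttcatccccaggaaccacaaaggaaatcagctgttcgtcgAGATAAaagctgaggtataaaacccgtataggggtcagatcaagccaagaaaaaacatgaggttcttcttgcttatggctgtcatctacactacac
AGATAA on either strand occurred in 3 of the 8 mast cell genes with a window (37.5%; Cpa3, Fcer1a and Ms4a2) and in 12.7% of all genes. Of the 3, only Cpa3 had a nominal difference.

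**Figure D4:**
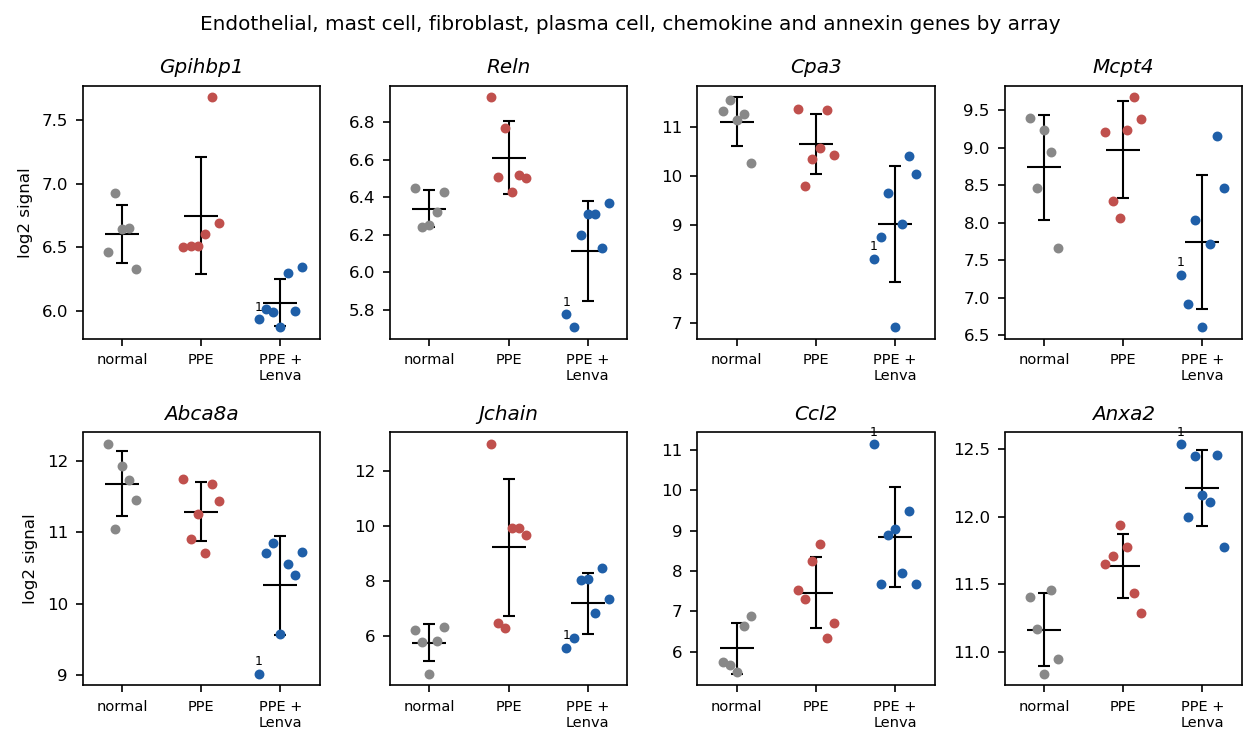
Log2 signal (y axis) of 8 genes of endothelium (Gpihbp1, Reln), mast cells (Cpa3, Mcpt4), fibroblasts (Abca8a), plasma cells (Jchain), chemokines (Ccl2) and annexins (Anxa2) in each array of normal aorta (grey, n = 5), PPE (red, n = 6) and PPE + Lenva systemic (blue, n = 7), with bars for the mean ± SD; the digit 1 marks treated array 1. All treated arrays lie below all PPE arrays for Gpihbp1 and Reln, and treated array 1 has the highest Ccl2 value, 11.15.

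Immunoglobulin segments made up 55 of the 89 clusters with at least a 2-fold nominally lower signal, and their level varied widely between mice. Of 225 immunoglobulin heavy and light chain genes, a group formed after these values were seen, 63 were nominally lower and none higher (2.41% of all genes and 7.16% of those with array values were lower), 194 had negative differences, and the median was -0.73. Such segments are closely related in sequence, and probes may not separate them. The mean of the 119 with array values was 7.13 and 7.32 in PPE arrays 3 and 2 and between 9.0 and 10.59 in the other PPE arrays. In the treated arrays it lay between 5.64 and 8.36, and in normal aorta between 4.79 and 6.10, so that PPE arrays 2 and 3 were within the treated range. Jchain, which joins secreted IgA and IgM, ran from 6.31 over 9.82 to 13 in PPE and from 5.58 over 7.35 to 8.49 in treated arrays (difference -2.04, SE 0.87, unadjusted p = 0.0318, exact permutation p = 0.0705). Without PPE array 1 it was -1.28 and its p 0.0942. Of 16 B cell and plasma cell genes, 2 were nominally lower (12.5% against 2.41% of all genes) and 1 higher, and none was lower without PPE array 1 or 6, and 1 without PPE array 4 or treated array 1 or 2. Besides Jchain, Derl3, a gene of protein quality control in secretory cells, was lower by 0.50 (SE 0.20), and by 0.32 and not nominally without PPE array 6. Mzb1, a chaperone of plasma cells, differed by -0.80 (SE 0.40, exact permutation p = 0.124), and by -0.36 without PPE array 1. Ms4a1, which encodes the B cell surface protein CD20, went the other way, with averages of 4.89 (SD 1.33) in PPE and 6.03 (SD 1.01) in treated arrays (difference 1.14, SE 0.53), and the B cell gene Cd79a differed by 0.21, which was not nominal.

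Macrophage genes as a list did not separate the groups. Of 28, 2 were nominally higher and 1 lower, and among members with array values the higher ones were 2 of 25, a share below the 10.0% of all genes with array values. Cd14, the co-receptor for lipopolysaccharide, was higher by 0.63 (SE 0.23), and Cd163, the haemoglobin scavenger receptor of resident macrophages, was lower, from 5.57 over 6.16 to 6.49 in PPE and from 5.26 over 5.56 to 6.02 in treated arrays (difference -0.51, SE 0.19). Msr1, a scavenger receptor outside the list, differed by 0.95 (SE 0.45, exact permutation p = 0.103), and by 0.74 with a limma p of 0.123 without PPE array 5. With the authors' averages it was 0.10. The macrophage markers Cd68, Adgre1, C1qa and C1qb differed by 0.02, -0.10, 0.01 and -0.37. The authors' averages of C1qb were 16.37 in PPE and 16.40 in treated arrays, and those of Adgre1 were 11.66 and 11.36.

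Chemokines and cytokines were higher in 21 of 26 differences, with a median of 0.36 and 3 nominal members, 14.3% of the 21 with array values against 10.0% of all genes with array values. The median was 0.20 without treated array 4, 0.24 without treated array 1 or PPE array 5, and between 0.54 and 0.58 without treated array 3 or PPE array 4. Ccl2, which recruits monocytes, ran from 6.33 over 7.42 to 8.67 in PPE and from 7.67 over 8.90 to 11.15 in treated arrays, 4 of which lay above every PPE array (difference 1.37, SE 0.52, unadjusted p = 0.0179, exact permutation p = 0.0408). Ccl12, another ligand of the same receptor, differed by 1.33 (SE 0.63, exact permutation p = 0.0944), Ccl7 by 1.59 (SE 0.81, exact permutation p = 0.133; 1.05 without treated array 1) and Tnf by 0.65 (SE 0.27, exact permutation p = 0.0816). Of the 18 fits that each left out 1 array, Ccl12 was nominal in 7 and Tnf in 13. The highest values of Ccl2, Ccl7, Ccl12 and Tnf were those of treated array 1, the array with the lowest contractile mean. The number of nominal members moved with single arrays: it was 1 without PPE array 5 or 6 or without treated array 1, 4 or 6, and 7 without PPE array 4 or treated array 2. Genes of the interferon response had 16 of 17 positive differences and a median of 0.52, which was between 0.17 and 0.28 without PPE array 5 or 6 or treated array 1 or 6 and 0.81 without PPE array 4 or treated array 3, and none of them was nominal, with list means from 6.75 to 9.55 in PPE and from 7.27 to 10.22 in treated arrays. Of 3 measured red cell genes, 2 were nominally higher and none lower, 66.7% against 3.44% of all genes. Both had array values, the median difference of the list was 0.59, and the count was 1 without PPE array 4. Slc4a1, the anion exchanger of the red cell membrane, was nominally higher by 0.17 (SE 0.06). Alas2, an enzyme of haem synthesis, differed by 1.07 (SE 0.65), which was not nominal. The part of red cell genes in the other results was not tested. In the neutrophil list 2 of 14 members were nominally higher and none lower, 14.3% against 3.44% of all genes, with a median difference of 0.02. Among the 6 members with array values it was 1, 16.7% against 10.0% of all such genes. The 2 members were the calprotectin genes S100a8 and S100a9 (0.81, SE 0.38, and 0.53, SE 0.20), which monocytes also express.

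Fibroblast genes were lower in part. In the list of fibroblasts and adventitia, 3 of 19 were nominally lower and none higher, all among the 10 with array values (30.0% against 7.16% of all such genes), with 15 negative differences and a median of -0.24, which was -0.14 without treated array 2. Abca8a, which encodes an ABC transporter, ran from 10.71 over 11.35 to 11.75 in PPE and from 9.02 over 10.55 to 10.85 in treated arrays, with 4 of 7 treated arrays below the lowest PPE array and 1 level with it (difference -1.03, SE 0.29, unadjusted p = 0.00265, limma; exact permutation p = 0.00408), which was -0.67 with the authors' averages. Serpinf1, which encodes an anti-angiogenic serpin, was lower by 0.62 (SE 0.24; 0.38 and not nominal with the authors' averages) and the scavenger receptor gene Scara5 by 0.35 (SE 0.13). The fibroblast markers Dpt and Lum differed by -0.58 (authors' averages 16.82 in PPE and 16.78 in treated arrays) and 0.03, neither of them nominal. The marker Dcn stood at the ceiling of 19.93 in both groups. Genes outside the list, named for a small p or a large difference, were Gdf10, a bone morphogenetic protein relative (-1.36, SE 0.54), the proenkephalin gene Penk (-0.73, SE 0.18), and Svep1, a large extracellular protein (-0.71, SE 0.18). Which cells gave their signal was not tested. Penk ran from 6.94 over 7.33 to 7.81 in PPE and from 5.87 over 6.74 to 7.09 in treated arrays. Treated array 1 had the lowest Abca8a, Gdf10 and Penk values, as well as the lowest contractile mean.

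The matrix itself gave little. Fibrillar collagen and fibrosis genes had 1 nominal difference of 23 (4.35%, against 3.44% of all genes higher), Cthrc1 (0.19, SE 0.07, at an average of 4.6 in PPE). Col3a1, the type III collagen chain, had 15.25 (SD 0.78) in PPE and 15.26 (SD 0.28) in treated arrays. Elastic fibre genes had 0 of 17 nominal differences. Among matrix proteases and regulators 1 of 21 was nominally higher (4.76% against 3.44% of all genes), the urokinase receptor gene Plaur (0.63, SE 0.26). It was 11.1% of the 9 members with array values, against 10.0% of all such genes. Plaur was nominal in 14 of the 18 fits that each left out 1 array. Among nerve genes, the sodium channel Scn7a was lower by 1.06 (SE 0.38) and was the 1 nominal member of 10 (10.0%, against 2.41% of all genes lower).

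Annexins, which bind membranes in the presence of calcium, were higher in part. Of 16 annexins and S100 partners, 5 were nominally higher and none lower, 62.5% of the 8 with array values against 10.0% of all such genes. The count was 3 without PPE array 5 or 6 or treated array 1 or 5, and between 4 and 6 without any other single array. Anxa2, which also binds actin, ran from 11.29 over 11.68 to 11.94 in PPE and from 11.78 over 12.16 to 12.54 in treated arrays, with 6 of 7 treated arrays above every PPE array (difference 0.58, SE 0.14, unadjusted p = 0.000749, adjusted p = 0.751, limma; exact permutation p = 0.00291). Anxa1 was higher by 0.66 (SE 0.29), Anxa4 by 0.62 (SE 0.27), Anxa3 by 0.59 (SE 0.18) and S100a6, a partner of annexins, by 0.48 (SE 0.18). Anxa4 was nominal in 11 of the 18 fits that each left out 1 array. In normal aorta the mean of Anxa2 was 11.17, below both aneurysm groups.

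The cytosolic complex that holds several aminoacyl-tRNA synthetases, the enzymes that load transfer RNA, had 4 of 11 members nominally higher and none lower, 57.1% of the 7 with array values against 10.0% of all such genes. Aimp1, a scaffold of the complex, ran from 6.62 to 6.82 in PPE and from 6.80 to 7.18 in treated arrays, with 6 of 7 treated arrays above every PPE array (difference 0.24, SE 0.06). The aspartyl, arginyl and leucyl enzymes Dars, Rars and Lars were higher by 0.38 (SE 0.11; 0.24 with the authors' averages), 0.27 (SE 0.11) and 0.17 (SE 0.06). The proteasome subunit Psmc6 (0.41, SE 0.11), the chaperonin subunit Cct8 (0.38, SE 0.10) and the chromatin protein Rbbp7 (0.24, SE 0.06, without overlap) were among the genes with the smallest p of the comparison. Of 28 cell cycle genes, 26 had positive differences and 2 negative ones. The median was 0.15, and between 0.05 and 0.21 without single arrays. In this list 2 were nominally higher, Mcm6 of the replicative helicase (0.50, SE 0.17) and Tyms, thymidylate synthase (0.14, SE 0.06; 0.08 and not nominal without PPE array 5, 0.05 and not nominal with the authors' averages), 8.70% of the 23 with array values against 10.0% of all such genes.

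**Figure D5:**
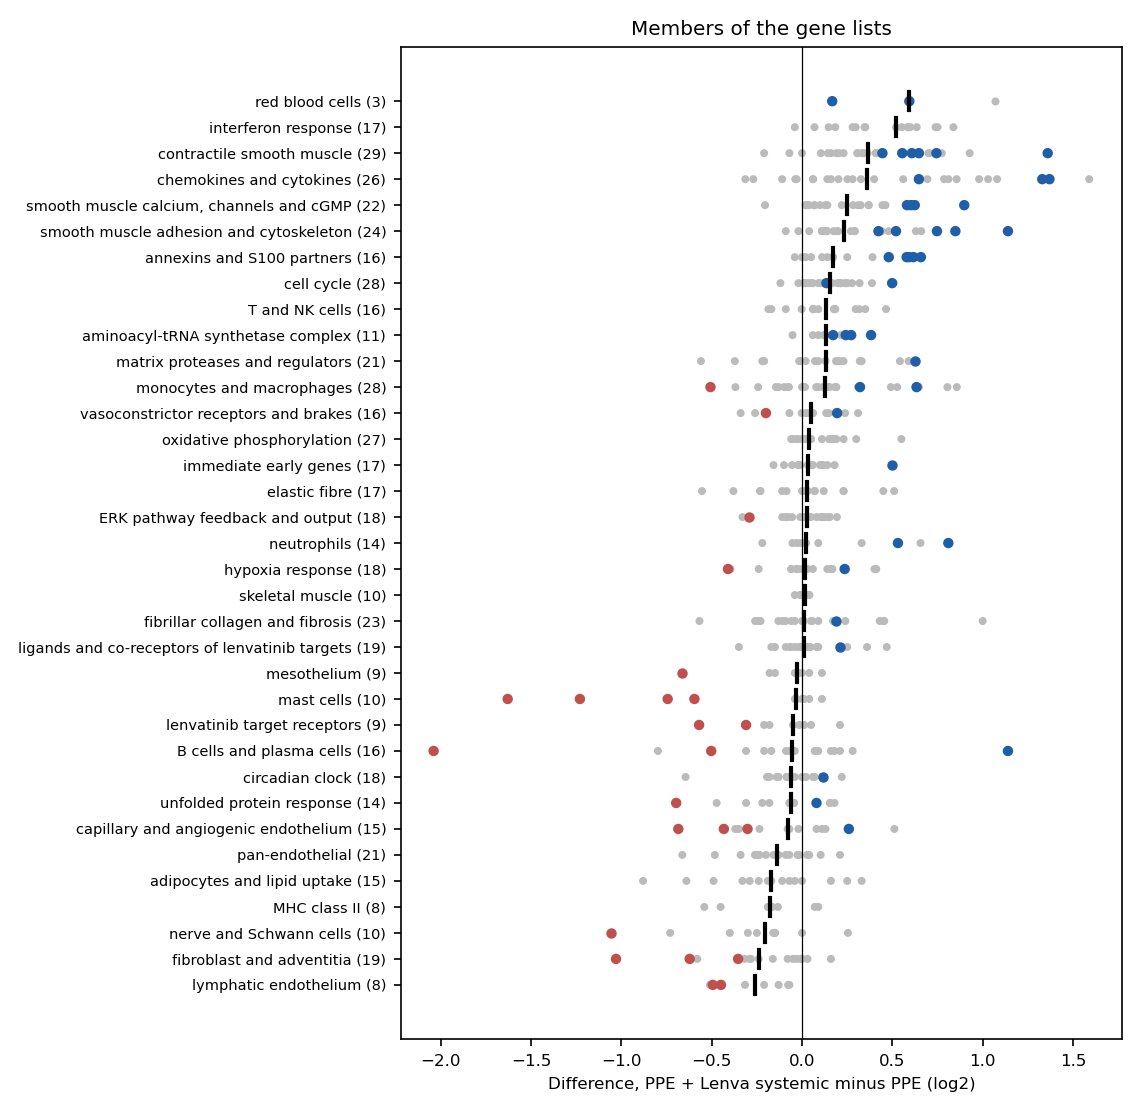
Difference between PPE + Lenva systemic and PPE on the log2 scale (x axis) of each measured member of 35 gene lists (y axis, number measured in brackets), nominally higher members blue, nominally lower members red, others grey, black bars for list medians. The contractile list has 6 blue points of 29 and a median of 0.36, and the mast cell list has 4 red points of 10.

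Among the genes with the smallest unadjusted p, several stood near the low end of the scale, where small absolute differences are read. Olfr1394, an olfactory receptor, differed by -0.23 at signals of 3.05 to 3.47. Epdr1 (0.27, SE 0.06), Pwp1 (0.29, SE 0.07) and Hecw2 (-0.23, SE 0.05) were of similar size. Tc2n had a larger difference, with PPE arrays from 6.86 over 7.45 to 8.07 and treated arrays from 6.49 over 6.61 to 6.88 (-0.79, SE 0.17, unadjusted p = 0.000227, adjusted p = 0.751, limma; exact permutation p = 0.00175). Among the largest nominal differences, the platelet chemokine Ppbp was higher by 1.72 (SE 0.69; SD 0.88 in PPE and 1.53 in treated arrays) and Itih4, a plasma protease inhibitor relative, by 1.03 (SE 0.41). The synaptic genes Snap25 and Syt1 and the tyrosine hydroxylase gene Th, markers of sympathetic neurons, were lower by 2.04 (SE 0.94), 1.25 (SE 0.50) and 1.63 (SE 0.74). Their SDs were 2.17, 1.15 and 1.54 in PPE and 1.90, 1.03 and 1.64 in treated arrays. No array values were given for these neuronal genes, so single arrays could not be left out. The mitochondrial transfer RNA gene mt-Tn was lower by 1.10 (SE 0.46), by 0.43 with the authors' averages, and by 0.73 without treated array 6, and was nominal neither there nor without PPE array 5. Inmt, a methyltransferase, was lower by 1.05 (SE 0.36).

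Several other lists gave few nominal differences. None of 27 genes of oxidative phosphorylation, 15 of adipocytes and lipid uptake, 10 of skeletal muscle, 16 of T and NK cells and 8 of MHC class II was nominal, and their medians were 0.04, -0.17, 0.02, 0.13 and -0.18. Without single arrays the T and NK median ranged from 0.02 to 0.21 and the MHC class II median from -0.35 to -0.01. Without PPE array 4, 1 T and NK gene was nominally higher. Hypoxia genes had 1 higher, Ero1l (0.24, SE 0.10), and 1 lower, the vasodilator gene Adm (-0.41, SE 0.17), of 18. Each was 5.56% of the list, against 3.44% of all genes higher and 2.41% lower. Ero1l was 14.3% of the 7 members with array values, against 10.0% of all such genes. The unfolded protein response had 1 higher, Trib3 (0.08, SE 0.04, at an average of 3.73 in PPE), and 1 lower, Herpud1 (-0.70, SE 0.24), of 14, each 7.14% of the list. Herpud1 was 11.1% of the 9 members with array values, against 7.16% of all such genes that were lower. The highest Herpud1 value was that of PPE array 6, and the difference was -0.44 and not nominal with the authors' averages. That of Ero1l was 0.16 and not nominal without PPE array 6.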

How the data were processed

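Log2 signals of 18 arrays for 11121 transcript clusters were deposited by the authors. They had been made by SST-RMA, which corrects background, normalizes arrays and summarises probes (Transcriptome Analysis Console, version 4.0.1.36 in the submitters' processing notes, build mm10). Tables of comparisons, also from the authors, held group averages and SDs on the log2 scale for 65956 clusters, besides fold changes and p-values, which were not used except to find which clusters had array values: those at 0.05 or below in the overall F test. The averages matched a Tukey biweight to within 0.02 in 99.9% of clusters or more, so that a difference fitted to array values can depart from that of the averages. Precision is limited by the number of arrays.

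Differences were fitted with limma 3.58.1 (R 4.3.3) to normal aorta, PPE and PPE + Lenva systemic together, without covariates, from array values where there were any and from averages and pooled SDs elsewhere. The variance prior and the Benjamini-Hochberg adjustment used all 65956 clusters. The fit was tested on simulated data. A gene is its brightest cluster with 1 symbol (36232 genes). Gene lists and members were chosen with earlier results of these data known. Named genes, leaving out predicted genes, small RNAs and antigen receptor segments, were the 12 with the smallest p and the 10 with the largest nominal difference in each direction, up to 4 members of each list, the target receptors and 12 genes the study discusses. Other genes named beside a list's count, microRNAs and Adgrl4 were chosen after their values were seen. Permutation tests were two-sided and exact (1716 splits of 13 arrays). Sequences are RefSeq's (GRCm38.p6). Alternatives changed the normalization, prior, weights, filters, averages and samples, or added replicate numbers as blocks. Some items are not reported here.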

Additional observations from a re-analysis of the deposited data

Results flagged for a closer look

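Of 218 groups of arrays examined, for the named genes with array values and for the means of the gene lists, 10 held an array whose gap to the nearest other array exceeded Dixon's critical value (0.625 for 6 arrays and 0.568 for 7), and chance would flag about 1 in 20. Treated array 2 stood apart in Myl6 (15.67, next 14.83; gap over range 0.667) and in Itgb1 (17.00, next 16.55; 0.57). Treated array 1 stood below the others in Tagln (16.89, next 17.38; 0.583) and in Cd34 (11.03, next 12.11; 0.715), and treated array 4 above in Derl3 (4.57, next 4.09; 0.615). PPE array 5 stood above in Gpihbp1 (7.68, next 6.69; 0.839) and in mt-Tn (19.29, next 18.30; 0.798), and PPE array 6 above in Herpud1 (12.05, next 11.14; 0.636). Of the list means, treated array 3 was high in the hypoxia response (8.26, next 7.87; 0.716) and PPE array 2 low in the unfolded protein response (9.98, next 10.29; 0.756). The reason was not tested.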

How the results depend on the processing

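No cluster was called under 27 of 32 alternatives. Array weights gave 1 call (Ighv2-1), adjusting over the 11121 clusters with array values alone gave 2, which were selected by an overall test, a threshold of 0.25 gave 2 and a threshold of 0.1 gave 0. Leaving out each array gave 0 to 1 calls, a cluster without a gene symbol each time without PPE array 1 or PPE array 4. Nominally higher and lower clusters fell to 676 and 773 without dim clusters, where the lower ones were the more numerous, and to 1252 and 882 with single-symbol clusters only. Both settings tested fewer clusters. Without single arrays, nominally higher clusters lay between 2085 and 2376 and lower ones between 1483 and 1641. At 2-fold the 12 higher clusters became 7 with single-symbol clusters only and 9 to 21 without single arrays, highest without PPE array 4, and the 89 lower clusters 61 to 112. A replicate block gave 0 calls, 2272 higher and 1522 lower nominal clusters and 18 and 84 at 2-fold. Replicate numbers did not pair the arrays (correlations of deviations from -0.444 to 0.492, and 0 of 6 PPE arrays closest to their own number). Nominal list members were 45 higher and 23 lower, and 31 to 50 and 21 to 26 without single arrays. Of 64 named genes with array values and a nominal difference, 46 stayed nominal without any single array. Of 100 named genes, 97 kept their direction under all alternatives. The others were near 0: without single arrays Pecam1 ranged from -0.152 to 0.252, Kit from -0.0367 to 0.065 and Fgfr3 from -0.03 to 0.00686. With authors' averages for all clusters Kit was -0.04 and Fgfr3 0.01, and with the replicate block Kit was -0.0317. For clusters without array values, normalization, weights, block and leaving out arrays could not be applied. The ceiling of 19.93 hides differences of the brightest clusters.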
